A study of Mus musculus with 22 samples.

Results

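The miR-17-92 and miR-106b-25 clusters were measured by 9 of the 566 mouse miRNA probes of the NanoString nCounter panel, an assay that counts barcoded probes without amplification. The 9 were every probe naming miR-17, miR-18a, miR-19a, miR-19b, miR-20a, miR-92a, miR-106b, miR-93 or miR-25, a rule that uses no measured value. No star strand of these miRNAs was among the probes. Of the 9, 2 were joint probes: miR-17 shared its probe with miR-106a, and miR-20a shared its probe with miR-20b, so that neither pair could be separated.

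The mice carried a Pax8-driven, doxycycline-inducible Cre, which is active in the secretory epithelium of the fallopian tube (FT), together with floxed alleles. Control tubes (CT, n = 5) came from uninduced mice whose alleles were not recombined, with Brca1 fl/fl, Brca1 fl/+, Brca2 fl/fl or Brca2 fl/+. Doxycycline-induced tubes (FT, n = 5) carried Brca2 -/+ in FT1, FT3 and FT5, Brca1 -/- in FT2 and Brca2 -/- in FT4. The metastasis group (M, n = 5) carried Brca2 -/- in M1 and M3, Brca1 -/+ in M2 and M6, and Brca2 -/+ in M4. M1 to M4 were labelled peritoneal metastases, and M6, also titled a metastasis, was labelled an ovarian tumor and listed by the study as an ovarian metastatic tumor. Plasma came from 3 control mice (CS2 to CS4, the mice of CT2 to CT4) and from 4 induced mice (TS1 to TS4, the mice of FT2 to FT5 in that order). The ages of the mice are not given in the sources used here. Brca genotypes were mixed within every tissue group, and bulk tissue was used, so fewer cells of a type and less RNA per cell cannot be told apart. The study reported that some metastases shared a mouse with an induced tube, and which ones they were was not used here.

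Both clusters are polycistronic, meaning that several miRNA hairpins are cut from a shared primary transcript. miR-17-92 is a transcriptional target of Myc and acts as an oncogene in lymphoma, and miR-106b-25 is a paralogous cluster inside an intron of Mcm7, a replication licensing gene whose promoter responds to E2F. The miR-17 family is known to repress the cell cycle inhibitor Cdkn1a, and the miR-25 family the apoptosis factor Bcl2l11.

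In RefSeq's mouse assembly GRCm38.p6, the 6 hairpins of miR-17-92 lay within 836 bases at chr14:115043671-115044506 on the plus strand. The 3 hairpins of miR-106b-25 lay within 498 bases at chr5:138165321-138165818 on the minus strand, inside Mcm7. The mature sequences from RefSeq are shown because the seed, which pairs with the target and is given in capitals (bases 2 to 8 from the 5′ end), divides the members into 4 families. The miR-17 family came from both clusters, and miR-106a and miR-20b, which the joint probes also count, belong to another paralogous cluster, on chromosome X.
miR-17: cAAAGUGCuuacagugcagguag
miR-106a: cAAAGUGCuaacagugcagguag
miR-20a: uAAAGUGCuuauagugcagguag
miR-20b: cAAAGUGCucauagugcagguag
miR-93: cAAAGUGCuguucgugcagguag
miR-106b: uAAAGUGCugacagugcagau
The miR-25 family also joined the clusters, with miR-25 from miR-106b-25 and miR-92a from miR-17-92.
miR-25: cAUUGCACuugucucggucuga
miR-92a: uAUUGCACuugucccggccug
The miR-19 and miR-18 families were confined to miR-17-92 among the members.
miR-19a: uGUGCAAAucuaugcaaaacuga
miR-19b: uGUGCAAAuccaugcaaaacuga
miR-18a: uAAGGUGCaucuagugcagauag

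Counted from the 5′ end, miR-17 and miR-106a differed by the single substitution U10A, and miR-20a and miR-20b by U1C and U10C, all outside the seed. miR-19a and miR-19b, which had separate probes, differed by U11C. miR-17 and miR-20a differed by C1U and C12U, and miR-25 and miR-92a by C1U, U14C and U18C over 21 compared bases. The mature miR-19b and miR-92a are each encoded at 2 loci, on chromosome 14 and chromosome X, so their probes also read both.

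Total miRNA counts ranged from 70164 to 598321 in tissue (100 ng of RNA) and from 18350 to 269005 in plasma (10 ng). The detection level, set at the mean plus 2 SD of the 8 negative hybridization controls of the same sample, lay between 18.3 and 67.7 counts. miR-17, miR-20a and miR-25 exceeded it in all 15 tissue and all 7 plasma samples. miR-19a and miR-93 each exceeded it in 11 tissue samples, miR-19b in 10 and miR-106b in 9. In plasma, miR-19a exceeded it in 7, miR-93 and miR-106b in 6 and miR-19b in 5 samples. miR-18a and miR-92a exceeded it in 0 of 22 samples, with 3 to 23 and 3 to 26 counts, so that changes of these 2 members could not be told from background. Below, values are normalized counts, in which each count was scaled to the top 100 miRNAs of its sample by their geometric mean (top 30 in plasma).

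Induced tubes were compared with control tubes to find changes that accompany Cre induction in the tube itself. With edgeR's quasi-likelihood test, 0 of the 9 members passed an adjusted p of 0.05, beside 0.177% of all 566 miRNAs. No member reached an unadjusted p of 0.05 either, which 6.54% of all miRNAs did, and DESeq2, limma and the methods' t-test called 0 members. The values below show that the FT samples were spread widely around the controls.

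miR-25, the miR-106b-25 member of the largest FT increase, read 450, 538, 457, 677 and 387 in CT1 to CT5 and 812, 1487, 372, 789 and 573 in FT1 to FT5. FT2 was the highest and FT3 lay below every control. The log2 fold change was 0.68 (SE 0.52, edgeR adjusted p = 0.685), with a 95% interval of -0.53 to 1.89. miR-93 read 45.2, 56.2, 31.8, 54.6 and 41.9 in CT and 50.4, 126, 45.3, 38.9 and 54.3 in FT, where FT2 alone lay above the controls. It was below detection in CT3, CT5, FT3 and FT4. Its log2 fold change was 0.44 (SE 0.43, edgeR adjusted p = 0.738).

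miR-106b, cut from the same transcript, did not share this pattern. It read 74.2, 41.1, 42.8, 49.2 and 49.3 in CT and 24.5, 21.3, 126, 15.6 and 46.7 in FT, of which CT2, CT5, FT2 and FT4 were below detection. FT3 was the highest and FT1, FT2 and FT4 were below every control. Its log2 fold change of -0.15 (SE 0.51, edgeR adjusted p = 0.900) averaged over these opposite values.

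The miR-19 members followed miR-106b in FT. miR-19a read 109, 85.0, 98.7, 92.9 and 168 in CT and 40.4, 59.9, 319, 29.2 and 97.8 in FT. miR-19b read 117, 67.9, 80.1, 64.8 and 51.8 in CT and 27.1, 32.9, 237, 44.7 and 75.5 in FT. For both, FT3 was far above the controls and FT1, FT2 and FT4 were below them. Both were below detection in FT2 and FT4, as was miR-106b, and miR-19b was so in CT5 too. The likeness to miR-106b in FT2 and FT4 is therefore within background. FT3 and FT5, both labelled with the same genotype, read 319 and 97.8 for miR-19a. With FT2 and FT3 both left out, a choice made after seeing the data, the log2 fold change of miR-19a was -0.95 (edgeR adjusted p = 0.327) in place of -0.02, and that of miR-106b was -0.78 (adjusted p = 0.428) in place of -0.15.

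The miR-17 probe was steadier in FT, with a coefficient of variation of 26.2%. The miR-20a probe was not, at 50.7%, beside 52.1% for miR-25. The miR-17 probe read 366, 346, 295, 290 and 298 in CT and 351, 323, 325, 161 and 342 in FT, with FT4 alone below the controls. The miR-20a probe read 468, 782, 856, 531 and 627 in CT and 514, 1091, 512, 323 and 470 in FT. FT2 lay above and FT4 below every control. The log2 fold changes were -0.09 (95% interval -1.17 to 0.99) and -0.17 (-1.36 to 1.02).

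Metastases were compared with control tubes to find changes in disseminated tumors. Here 4 of the 9 members rose and none fell: miR-17, miR-20a, miR-93 and miR-25. Of all 566 miRNAs, 16.8% passed the same test, 8.66% as higher and 8.13% as lower. Most of the 566 were below detection. Among those with a mean count of at least 20, 104 of 253 passed, 49 as higher and 55 as lower, as did 4 of 7 members. The median log2 fold change was 0.72 over the 9 members, which is the value of the undetected miR-18a. It was 0.02 over all 566 miRNAs, a value drawn mostly from probes within background, and -0.19 over the 253. No shift of the clusters as a whole was read from these medians. The other 3 measured members, miR-19a, miR-19b and miR-106b, had averages close to the controls.

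miR-25 showed the largest increase. It read 2882, 1924, 4975, 2790 and 2206 in M1, M2, M3, M4 and M6, and the lowest of these exceeded the highest control of 677. The means were 2955 ± 1198 in M and 502 ± 111 in CT (SD, n = 5 each), a log2 fold change of 2.56 (SE 0.45, edgeR adjusted p = 0.00109). miR-93, its neighbour in Mcm7, read 114, 130, 221, 114 and 153 in M, again without overlap, and its log2 fold change was 1.66 (SE 0.36, edgeR adjusted p = 0.00462). miR-93 was below detection in CT3 and CT5, at 29 and 17 counts, so its increase is measured from controls partly within background.

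The miR-17 probe read 604, 1041, 2160, 378 and 1515 in the 5 M samples, the most uneven increase of the 4. M4 lay just above the highest control of 366. The log2 fold change was 1.83 (SE 0.50, edgeR adjusted p = 0.0202). The adjusted p lay between 0.0519 and 0.0568 when CT2, CT3, CT4 or CT5 was left out and was 0.127 in the methods' t-test. The miR-20a probe read 1350, 1323, 4211, 2163 and 2580, all above the highest control of 856 (for 6.54% of all miRNAs every M sample exceeded every CT sample), with a log2 fold change of 1.83 (SE 0.47, edgeR adjusted p = 0.0136).

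M3 was the highest M sample for all 4 increased members, and the call of each was kept without it (log2 fold changes of 1.47 to 2.29). Without M6, the ovarian sample, the 4 calls were also kept, at 1.64 to 2.65. Samples of the same genotype differed: M1 and M3, which were both Brca2 -/-, read 604 and 2160 for the miR-17 probe, and M2 and M6, both Brca1 -/+, read 1041 and 1515.

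miR-106b read 40.7, 36.1, 46.6, 37.4 and 84.1 in M, values that overlapped those of CT. The log2 fold change was -0.05, with a 95% interval of -0.87 to 0.77 (edgeR adjusted p = 0.929). miR-19a read 69.1, 76.6, 177, 89.3 and 174, with a log2 fold change of 0.09 (95% interval -0.83 to 1.02, adjusted p = 0.884). miR-19b read 52.9, 37.8, 100.2, 60.2 and 97.6, with a log2 fold change of -0.14 (95% interval -1.01 to 0.73, adjusted p = 0.811). The sign of these last values depended on the scaling: miR-106b was at 0.20 and miR-19b at 0.14 when all samples were scaled to a common set of abundant miRNAs. A rise as large as that of miR-25 lay outside all 3 intervals. All 3 members were below detection in M1 and M4.

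**Figure D1:**
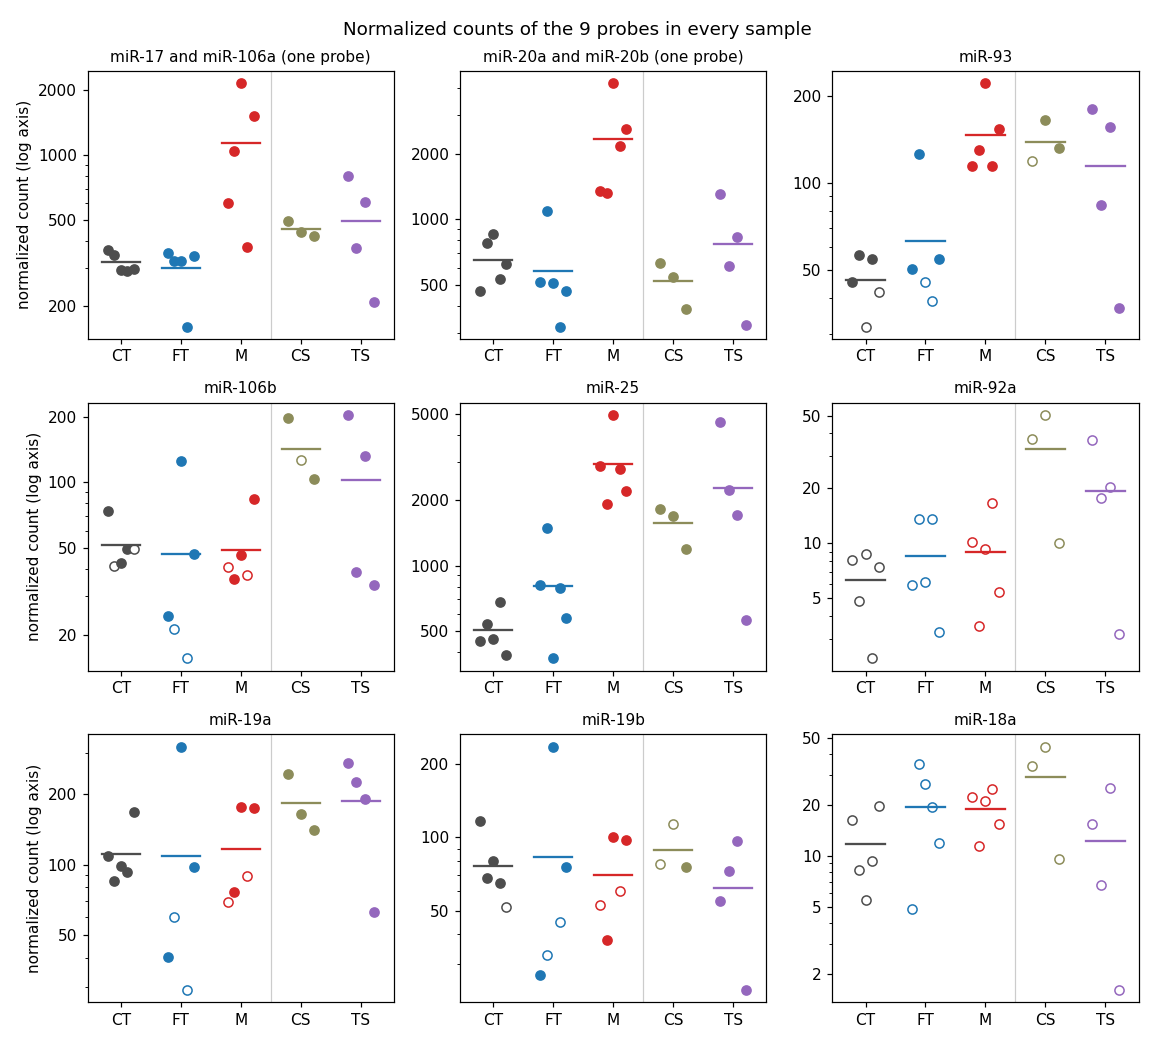
Normalized counts (log axes, which differ between panels) of the 9 probes in each sample of control tubes (CT), induced tubes (FT), metastases (M), control plasma (CS) and plasma of induced mice (TS). Filled points exceeded the detection level of their sample, open points did not, and bars are group means. For miR-17, miR-20a, miR-93 and miR-25 all 5 M points lie above all 5 CT points, whereas miR-106b, miR-19a and miR-19b overlap and miR-18a and miR-92a are open throughout.

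Compared with induced tubes, metastases had higher averages for the same 4 members, but 0 of 9 passed (1.94% of all 566 did). The log2 fold changes were 1.92 for the miR-17 probe (edgeR adjusted p = 0.337), 2.0 for miR-20a (0.326), 1.87 for miR-25 (0.363) and 1.22 for miR-93 (0.584). For miR-17, miR-20a and miR-25, the lowest M sample exceeded the highest FT sample, a separation in that direction found for 0.883% of all miRNAs. These 3 members had an unadjusted p under 0.05, as did 8.83% of all miRNAs. DESeq2 called 2 members, miR-20a (adjusted p = 0.0208) and miR-25 (0.0373). Neither limma nor the methods' t-test with Benjamini-Hochberg adjustment called any (0 each). The M mean was thus the highest of the tissue groups for these members, with M separated from CT but neither M from FT nor FT from CT in edgeR's test.

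**Figure D2:**
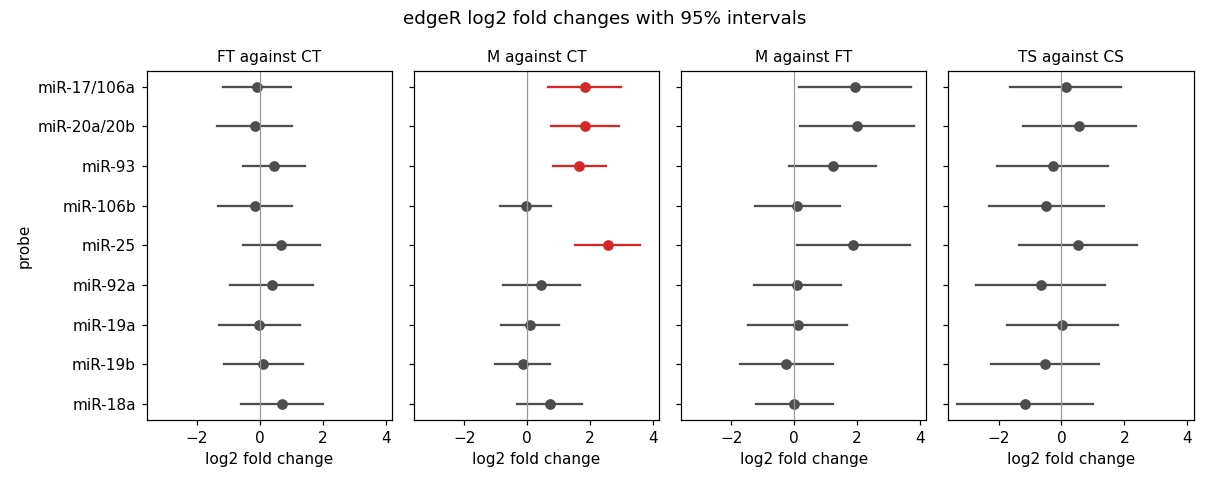
edgeR log2 fold changes (points) with 95% intervals (lines) of the 9 probes in the 4 comparisons. Red marks an adjusted p under 0.05 over all 566 miRNAs. Only the comparison of M with CT holds red points, at 1.83, 1.83, 1.66 and 2.56 for miR-17, miR-20a, miR-93 and miR-25.

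Since members of a cluster are cut from a shared transcript, their ratio within a sample was compared too. A ratio of raw counts does not depend on the scaling between samples, whereas in the tested ratios the pseudocount lets the scaling enter slightly. Probes differ in efficiency, so only the change of a ratio between samples was read. Of the 18 ratios within the clusters, 9 joined probes that were above detection in at least 9 of the 15 tissue samples. Between M and CT, 7 of these 9 did not overlap as log2 ratios of normalized counts plus a pseudocount of 1, and passed a two-sided exact permutation test (p = 0.00794 each, the smallest that 252 splits allow, 0.0204 after Benjamini-Hochberg adjustment over the 18). Among all pairs of miRNAs averaging 50 counts or more, 37.4% did not overlap, so separation of this kind was frequent between these tissues. miR-106b averaged below 50 counts in CT and M, so its ratios were not among those pairs. Ratios that share a member are also not independent of each other.

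The ratio of miR-25 to miR-106b changed most. It was 6.06, 13.1, 10.7, 13.8 and 7.85 in CT1 to CT5, and 70.9, 53.3, 107, 74.7 and 26.2 in M1, M2, M3, M4 and M6, so the lowest M sample lay above the highest control. The mean log2 ratio was higher by 2.61 in M. The ratio of miR-93 to miR-106b ran from 0.61 to 1.37 in CT and from 1.82 to 4.75 in M, a log2 difference of 1.74. Here miR-93 was below detection in CT3 and CT5, and miR-106b in CT2, CT5, M1 and M4. The ratios of miR-25 to miR-93 met at 14.4, the highest of CT and the lowest of M, and were apart only with the pseudocount. Their log2 difference of 0.87 turned to -0.40 when the negative controls were subtracted from the counts. With that subtraction, miR-93 to miR-106b stayed without overlap at 3.69, while miR-25 to miR-106b overlapped at 3.29 (exact permutation p = 0.0159, 0.0476 after adjustment).

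In miR-17-92, the miR-17 family probes rose against the miR-19 family. These joint probes also count miR-106a and miR-20b, and miR-19b is also encoded on chromosome X. The ratios are therefore not of this cluster's transcript alone. The ratio of miR-20a to miR-19b was 4.0, 11.5, 10.7, 8.19 and 12.1 in CT and 25.5, 35.0, 42.0, 35.9 and 26.4 in M, a log2 difference of 1.90. The corresponding differences were 1.72 for miR-20a to miR-19a, 1.57 for miR-17 to miR-19a and 1.75 for miR-17 to miR-19b. With the negative controls subtracted, the adjusted p of both ratios to miR-19b was 0.0893. The ratios within a family of this cluster overlapped: miR-17 to miR-20a ran from 0.345 to 0.782 in CT and from 0.175 to 0.787 in M (p = 0.794, exact permutation test), and miR-19a to miR-19b from 0.931 to 3.24 and from 1.31 to 2.02 (p = 0.635, exact permutation test). In miR-106b-25, by contrast, miR-93 and miR-106b share the miR-17 family seed, and their ratio, given above, did not overlap.

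Ratios in FT spanned both groups. The ratio of miR-25 to miR-106b was 33.2, 69.9, 2.97, 50.8 and 12.3 in FT1 to FT5, so that FT1, FT2 and FT4 lay in the range of M, FT5 in that of CT, and FT3 below both. miR-106b was below the detection level in FT2 and FT4, at 11 and 8 counts, as in CT2, CT5, M1 and M4, so these ratios rest on a denominator within background. The ratio of miR-20a to miR-19b was 19.0, 33.2, 2.17, 7.22 and 6.22, and FT2 alone lay in the range of M. Here miR-19b was below detection in FT2, FT4, CT5, M1 and M4. In FT against CT, 0 of the 18 ratios passed the exact permutation test or were without overlap (1.53% of all pairs were), and in M against FT 0 passed and 1 was without overlap, a ratio to the undetected miR-92a (5.61% of all pairs).

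**Figure D3:**
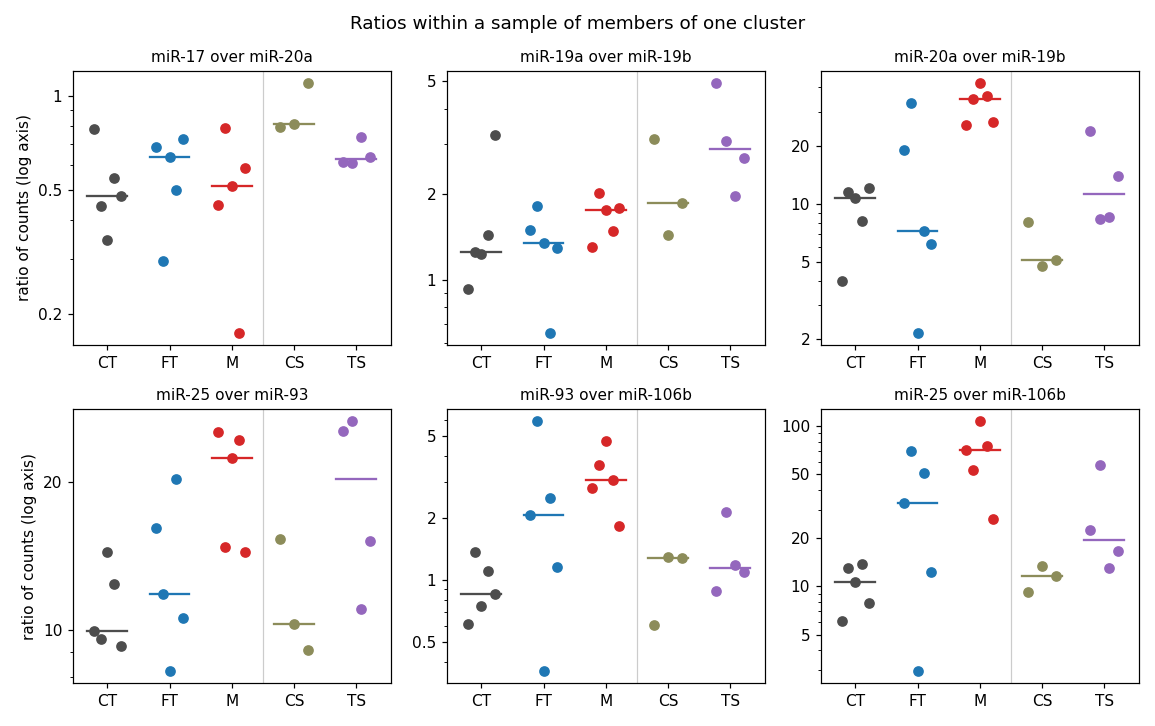
Ratios of raw counts (log axes, which differ between panels) for 6 pairs of members, with a point per sample and bars at group medians, in CT, FT, M, CS and TS. Between CT and M, miR-17 to miR-20a and miR-19a to miR-19b overlap, and miR-25 to miR-93 meets at 14.4. The other 3 are apart, among them miR-93 to miR-106b, which share a seed. FT spreads from 2.97 to 69.9 for miR-25 to miR-106b.

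The level of housekeeping mRNA went with the ratio of miR-25 to miR-106b between M and CT and among FT samples. Within M and within CT it did not. The level of 4 housekeeping mRNAs (Actb, B2m, Gapdh and Rpl19) over the level of abundant miRNAs was 0.710 to 2.38 in CT and 3.53 to 23.7 in M. In FT it was 7.08, 20.2, 0.391, 5.995 and 0.919 in FT1 to FT5. FT1, FT2 and FT4 thus had both high mRNA content and high miR-25 to miR-106b ratios, and FT3 had the lowest of both among all 15 tissue samples. The ratio of miR-20a to miR-19b followed it less closely, since FT4 had a ratio of 7.22, within the range of CT, and FT1 had 19.0, below every M sample. Within M, the miR-25 to miR-106b ratio was lowest in M6 (26.2) and highest in M3 (107), at mRNA levels of 6.89 and 6.36. Within CT it was highest in CT4 (13.8), at 0.989, whereas CT3 had the highest mRNA level, 2.38, and a ratio of 10.7. The summed level of the endothelial miR-126-3p and miR-126-5p gave the same order of the FT samples as the miR-25 to miR-106b ratio, with 12878, 44933, 3052, 22106 and 4406 in FT1 to FT5, 4453 to 7043 in CT and 7779 to 17091 in M. Between M and CT, however, the 2 arms went opposite ways. miR-126-3p was called higher, and miR-126-5p was lower without passing (edgeR, both with an unadjusted p under 0.05). The part of mRNA content and of cell types in the ratios was not tested.

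**Figure D4:**
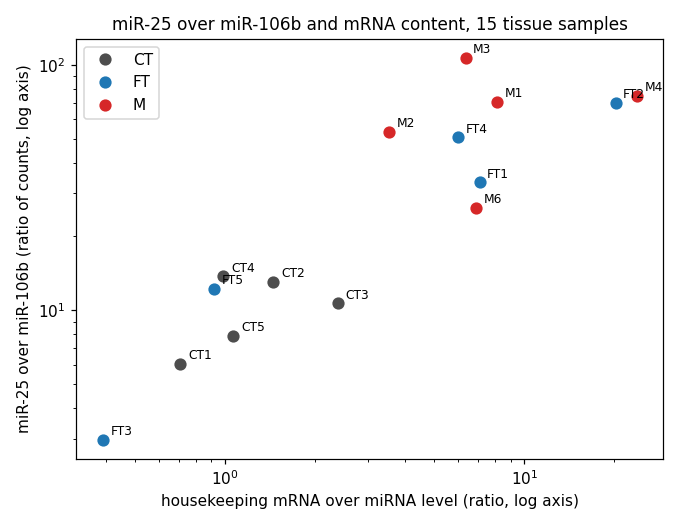
Ratio of miR-25 to miR-106b counts against the level of 4 housekeeping mRNAs over the miRNA level used for scaling, both on log axes, with a labelled point for each of the 15 tissue samples. FT1, FT2 and FT4 lie with the M samples, FT5 lies with the CT samples, and FT3 is lowest on both axes at 0.391 and 2.97. In CT2, CT5, FT2, FT4, M1 and M4 the miR-106b count was below detection.

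Markers of other cells also differed between M and CT. The summed level of 5 miRNAs of ciliated epithelium was 326 to 3997 in CT and 26.4 to 74.6 in M, where all 5 averaged below detection and 4 were called lower, and in FT it ran from 77.3 in FT2 to 1701 in FT5. The 5 smooth muscle and stromal miRNAs summed to 4963 to 13898 in CT and 618 to 3282 in M (3 called lower). The 4 erythrocyte miRNAs summed to 3023 to 5062 in CT and 1918 to 12143 in M (miR-486 called higher), and the 5 leukocyte miRNAs to 657 to 1218 and 830 to 5329 (miR-223 called higher). M4 had the lowest erythrocyte and leukocyte sums of M and also the lowest reading of the miR-17 probe, whereas M3 had the highest of all 3. The 5 epithelial miR-200 family miRNAs summed to 9717 to 11624 in CT and to 415, 2112, 205, 36086 and 8769 in M1, M2, M3, M4 and M6. The epithelial markers of the labelled tumors were thus nearly absent in M1 and M3. They were also below every control in M2 and M6, and above the controls in M4 alone. The part of these markers in the member values was not tested.

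Other miRNAs with the same seeds were at background. The miR-106a-363 cluster on chromosome X encodes miR-106a and miR-20b, which the joint probes count, together with miR-18b and miR-363. miR-18b averaged 7.08 in CT, 10.4 in FT and 8.38 in M, and miR-363 averaged 4.74, 9.71 and 12.8, all below the detection level. Of 5 miRNAs that carry a member seed outside the clusters (miR-92b, miR-32, miR-363, miR-367 and miR-18b), 1 fell between M and CT: miR-92b, a miR-25 family member, averaged 8.15 in M and 20.5 in CT, with a log2 fold change of -1.33 (edgeR adjusted p = 0.0436), at 2 to 11 and 9 to 27 counts that are within background. The call was lost with the common scaling set, with scaling to miR-425, with the replicate block, with the negative controls subtracted, with the members left out of the scaling set, with CT, FT and M fitted together, and on leaving out any 1 library other than CT2 and M1. Scaling to miR-425, TMM, DESeq2, the replicate block and leaving out CT5 each called miR-363 higher. The embryonic miR-291a-3p, miR-294, miR-295 and miR-302a to miR-302d, whose seeds resemble that of miR-17 in a shifted register, averaged below detection in every tissue group, and 0 of 7 passed in M against CT (edgeR, 2 with an unadjusted p under 0.05).

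Myc activates miR-17-92 and is known to repress a broad group of miRNAs, so 20 of the latter were examined beside the members. Between M and CT, 8 fell, 2 rose and 10 did not pass, with a median log2 fold change of -0.66 beside 0.02 for all miRNAs. Of all 566 miRNAs 16.8% passed, 8.13% as lower. Of the 253 miRNAs that averaged 20 counts or more, 104 passed, 55 as lower, and their median was -0.19. With that minimum, 9 of the list were lower and 2 higher. With the common scaling set 5 were lower and 2 higher, and with scaling to miR-425 3 were lower and 2 higher (median -0.035 beside 0.66 for all miRNAs). The miR-29 family, which targets collagen mRNAs, held the largest decreases: miR-29c fell by 4.07 (SE 0.51, edgeR adjusted p = 6.39e-05) on the log2 scale, miR-29b by 3.46 and miR-29a by 1.68. miR-30b, miR-30c, miR-30e, miR-26a and miR-26b fell by 2.03, 1.86, 1.45, 1.25 and 1.32. miR-22, at 2.0, and miR-146a, a regulator of NF-kappaB signalling, at 1.95, rose instead. The tested let-7 members did not pass, with log2 fold changes from -0.08 for let-7a to 0.58 for let-7f. In FT against CT 0 of the 20 passed in edgeR's test, beside 0.177% of all miRNAs. An unadjusted edgeR p under 0.05 was reached by 3 of the 20, beside 6.54% of all miRNAs. Myc itself was not measured by this panel.

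Over the 15 tissue samples, the members fell into the same sets as in the comparisons. Both use the same values, so the distances are a description and not separate support. The root mean square difference of centred log2 normalized counts was 0.36 between miR-106b and miR-19a, 0.38 between miR-106b and miR-19b, and 0.49 between miR-19a and miR-19b, although miR-106b lies in the other cluster. It was 0.49 between miR-93 and miR-20a, 0.52 between miR-93 and miR-25 and 0.54 between miR-93 and miR-17, but 1.09 between miR-93 and miR-106b and 1.498 between miR-25 and miR-106b. Of 135 non-member miRNAs averaging 50 counts or more, the closest to miR-93 were miR-130b (0.48) and miR-378 (0.56), to miR-20a miR-130b (0.67) and miR-378 (0.74), to miR-25 miR-378 (0.59) and miR-1198 (0.69), and to miR-17 miR-15a (0.68) and miR-130b (0.79). The closest to miR-106b were miR-103 (0.52) and miR-340-5p (0.59), to miR-19b miR-340-5p (0.64) and miR-140 (0.65), and to miR-19a miR-140 (0.70) and miR-340-5p (0.72). The median over all candidates was between 1.37 and 1.62 for these 7 members. The undetected members were closest to miR-1896 (0.59) and miR-466g (0.61) for miR-18a and to miR-1900 (0.58) and miR-27b (0.59) for miR-92a. All distances share the same 15 libraries and their scaling, and low counts add noise to those of miR-106b and miR-19b.

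Plasma of induced mice was compared with control plasma to look for circulating changes. In edgeR's test 0 of 9 members passed, as did 0% of all 566 miRNAs (131, or 23.1%, had an unadjusted p under 0.05, of them 0 members), and DESeq2 called 13 miRNAs and limma 0, of them 0 members. The median log2 fold change of all 566 miRNAs was -1.10, and 475 of the 566 in CS and 445 in TS averaged below detection. The member values are given relative to the scaling and not to that median.

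miR-25 read 1820, 1687 and 1198 in CS2 to CS4 and 4584, 2229, 1717 and 560 in TS1 to TS4. The log2 fold change was 0.54, with a 95% interval of -1.34 to 2.41. miR-20a read 628, 543 and 387 in CS and 1309, 610, 828 and 328 in TS (log2 fold change 0.57), and the miR-17 probe 499, 442 and 424 in CS and 804, 371, 610 and 209 in TS (0.13). For all 3, TS1 was the highest plasma sample and TS4 the lowest, on either side of the controls.

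For the remaining members TS4 was again the lowest plasma sample. miR-93 read 119, 164 and 132 in CS and 180, 83.7, 156 and 36.8 in TS. miR-106b read 197, 126 and 103 in CS and 204, 38.9, 132 and 33.6 in TS. miR-19a read 244, 164 and 141 in CS and 270, 225, 190 and 63.0 in TS, and miR-19b read 78.1, 114 and 75.4 in CS and 54.9, 72.7, 96.2 and 23.5 in TS. TS1 was the highest for miR-93, miR-106b and miR-19a, but for miR-19b it lay below all 3 controls and CS3 was the highest.

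The erythrocyte miRNAs, which include miR-451 and miR-486, summed to 48103, 31495 and 20695 in CS2 to CS4 and to 66423, 19870, 16771 and 8081 in TS1 to TS4. TS1 and TS4, at either end for miR-25, miR-20a and the miR-17 probe, were also at either end of this sum, and its part in the member values was not tested. Of the 18 ratios 0 passed the exact permutation test, in which 35 splits allow no p below 0.0571. The ratio of miR-20a to miR-19b was without overlap, at 4.78 to 8.04 in CS and 8.40 to 23.8 in TS, as was that of miR-17 to miR-20a, at 0.795 to 1.10 and 0.608 to 0.737 (9.36% of all pairs were without overlap). In CS2 and CS3 miR-19b was below detection, at 23 and 18 counts, so their ratios to it rest on a denominator within background.

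The mouse of FT2, the induced tube with the highest miR-25, miR-93 and miR-20a, also gave TS1, the plasma with the highest values of these members. The mouse of FT3, the tube with the highest miR-106b, miR-19a and miR-19b, gave TS2, which read 38.9, 225 and 72.7 for them and was not the highest plasma sample for any. With 4 mice, no relation between tube and plasma was tested.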

How the data were processed

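Total RNA from mouse tissue and plasma was profiled on the nCounter mouse miRNA v1.5 assay. The authors deposited raw barcode counts for 626 probes per sample, of which 566 name mouse miRNAs and entered the tests, while 60 served as controls. No column was left without a sample (0 unmatched). Whether a control-based correction preceded deposit is not given in the sources used here. Counts were normalized to the geometric mean of the top 100 (tissue) or 30 (plasma) miRNAs without background subtraction, as in the methods. Each sample's own top set was used here, a choice that the methods do not state. Pairs of groups were compared with edgeR 4.0.16 (R 4.3.3; quasi-likelihood test, library sizes set to these geometric means, adjustment by Benjamini-Hochberg over 566 miRNAs, threshold 0.05), after testing on simulated data. SEs were obtained from the fold change and the F statistic. DESeq2 1.42.0, limma 3.58.1, the methods' t-test on log2(normalized count + 1), other scalings, a minimum mean count of 20, subtraction of the mean negative control, a replicate block and leaving out samples were alternatives. Ratios used log2(normalized count + 1) and exact permutation tests (Python 3.11.15, scipy 1.17.1).

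All 9 probes are named, as are, for each, the 2 closest non-member miRNAs, and the miRNAs past the threshold from lists drawn from general knowledge. The members and lists were chosen with earlier results of these data known. Samples were separate mice within each group, as far as the sources used here state, and M5 and CS1 were not analysed here. All groups carried further engineered alleles beside those of the Brca genes, which are not reported here. Total counts per sample are given with the results, and low counts limit the precision of miR-106b, miR-93, miR-19a and miR-19b.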

Additional observations from a re-analysis of the deposited data

Results flagged for a closer look

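Within groups of 4 or 5 samples, a value is given here when its gap to the nearest other sample was large for the range of its group (Dixon's test), which chance gives in about 1 of 20 groups, and 10 of the 72 groups tested had such a value. In FT, FT3 stood apart for miR-19a (319), miR-19b (237) and miR-106b (126), and FT2 for miR-20a (1091) and miR-93 (126). FT4 stood apart for the miR-17 probe, at 161. In CT, CT5 stood apart for miR-19a (168) and CT1 for miR-106b (74.2). In M, M6, the ovarian sample, stood apart for miR-106b at 84.1. In plasma, the log2 ratio of miR-17 to miR-19a was 0.72 in TS2, below the other TS samples.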

How the results depend on the processing

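The 4 increases between M and CT kept their direction in every alternative. With sample number as a replicate block, 1 member passed in M against CT (miR-25), 0 in M against FT and 2 in TS against CS (miR-18a and miR-92a, both undetected). Same-numbered samples did not deviate together (correlations -0.19 to 0.11 in M against CT, -0.32 to 0.29 in FT against CT, -0.39 to 0.31 in M against FT and 0.036 to 0.38 in plasma), and only 1 number per comparison correlated best with its own, so the numbers were taken as names only. The block gave adjusted p values of 0.215 for miR-17, 0.126 for miR-20a and 0.0548 for miR-93. With negative controls subtracted miR-93 was at 0.0575. Leaving out each sample in turn gave 3 to 4 members in M against CT, and DESeq2 and TMM gave 5, miR-18a (DESeq2 adjusted p = 0.0269) among them with DESeq2. Judged by the negative ligation controls, miR-18a exceeded detection in 3 tissue and 1 plasma samples, miR-92a in 0 and 3, and the other members in at least as many samples as before. In M against FT, 1 member passed with CT, FT and M fitted together, 2 with DESeq2 and 4 at the unadjusted p of the methods' t-test. Of all miRNAs in M against CT, 160 passed with TMM, 190 with DESeq2, 47 with the methods' t-test, 62 with 3 groups together, 64 with the block and 60 to 101 without a sample, in place of 95. Of these calls 51.6% were higher, against 70.7% with the common set, 87.5% with miR-425 scaling and 40.4% with the t-test. Scaling moved the median of all miRNAs by 0.28 (common set), 0.64 (miR-425), 0.20 (DESeq2) and 0.14 (TMM) in M against CT, and in plasma by 1.05 (TMM) and 1.12 (DESeq2). In plasma, 225 miRNAs passed with the block and 173 without CS4, in place of 0. Of all miRNAs in M against FT, 11 passed, 4 to 25 without a sample, 23 with 3 groups together, 39 with DESeq2, 2 with miR-425 scaling, 0 with the t-test and 1 with the block.

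The following log2 values, none past the threshold unless stated, changed sign, and the cause was not tested. In FT against CT they were 0.20 (miR-17) and 0.074 (miR-19a) with DESeq2, 0.092 and 0.026 with TMM, 0.068, 0.14 and 0.044 (miR-17, miR-19a, miR-20a) with the common set, 0.40, 0.28, 0.46 and 0.44 (miR-17, miR-106b, miR-19a, miR-20a) with miR-425, and -0.31 for miR-19b with limma and the t-test. They were -0.32 for miR-19b with the block, 0.067 for miR-106b and -0.70 for miR-25 to miR-93 with controls subtracted, -0.012 for miR-20a to miR-19b with a pseudocount of 10, and -0.012 (miR-18a) and -0.64 (miR-19b) without FT2 and FT3. In M against CT miR-106b was 0.21 with DESeq2, 0.15 with TMM, 0.20 with the common set, 0.53 with miR-425 and 0.018 with the members left out of the scaling. miR-19b was 0.042, 0.14 and 0.43 with DESeq2, the common set and miR-425, miR-19a was -0.0044 with the block, and miR-19a to miR-19b and miR-25 to miR-93, the latter past the threshold before, were -0.0012 and -0.40 with controls subtracted. In M against FT miR-19b was 0.14 with limma and the t-test and 0.093 with the block, miR-92a was -0.0063 with DESeq2 and -0.048 with the block, miR-18a was -0.076 with miR-425 and -0.43 with controls subtracted, and miR-106b was -0.20 with controls subtracted. In TS against CS miR-106b, miR-19b, miR-92a and miR-93 were 0.39, 0.39, 0.51 and 0.54 with DESeq2 and 0.32, 0.31, 0.44 and 0.46 with TMM. With miR-425, miR-106b, miR-19b and miR-93 were 0.15, 0.082 and 0.36, and with the common set miR-93 was 0.00998. miR-17 and miR-19a were -0.039 and -0.11 with limma and the t-test, and miR-17, miR-19a and miR-25 were -0.33, -0.36 and -0.25 with the block. With controls subtracted, miR-18a, miR-19b, miR-92a and miR-93 were 3.98, 0.069, 5.89 and 0.052, and the ratios of miR-17 to miR-19a and miR-19b were -0.12 and -0.031.

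Leaving out a sample gave these ranges. In FT against CT they were -0.88 to 0.061 (miR-106b), -0.15 to 0.070 (miR-17), -0.94 to 0.22 (miR-19a), -0.76 to 0.34 (miR-19b), -0.17 to 0.63 (miR-17 to miR-19b), -0.017 to 0.33 (miR-17 to miR-20a), -0.38 to 0.064 (miR-19a to miR-19b), -0.057 to 0.81 (miR-20a to miR-19a) and -0.41 to 0.57 (miR-20a to miR-19b). In M against CT they were -0.36 to 0.12 (miR-106b), -0.10 to 0.28 (miR-19a), -0.30 to 0.070 (miR-19b) and -0.35 to 0.19 (miR-17 to miR-20a). In M against FT they were -0.21 to 0.84 (miR-106b), -0.28 to 0.34 (miR-18a), -0.13 to 1.04 (miR-19a), -0.48 to 0.62 (miR-19b), -0.25 to 0.33 (miR-92a) and -0.49 to 0.073 (miR-17 to miR-20a). In TS against CS they were -0.20 to 0.39 (miR-17), -0.20 to 0.32 (miR-19a), -0.062 to 0.86 (miR-25), -0.59 to 0.019 (miR-93), -0.083 to 0.31 (miR-17 to miR-19a) and -0.044 to 0.51 (miR-93 to miR-106b).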
